A study of Homo sapiens with 10 samples.

Results

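The 7 genes described here are the embryonic and fetal globin genes HBE1, HBZ, HBG1, HBG2, HBA1 and HBA2, together with ALAS2, out of 12125 genes in the deposited table. They were selected by name from genes whose measured values had been seen to be high late in this time course, so their values over the days are a description and no test was made on them. All 7 were found. RNA was sequenced from 10 cultures of the human embryonic stem cell (hESC) line H1, 1 for each sampled day of a serum-free differentiation towards hepatocytes, with no replicate. Day 0 was untreated. Days 1, 2 and 3 were under Activin A at 100 ng/ml, the step that forms definitive endoderm (DE). Days 5 and 7 were under FGF4 at 30 ng/ml with BMP2 at 20 ng/ml, and days 9 and 11 under HGF and KGF at 20 ng/ml each, the steps that lead to hepatoblasts. Day 21 was under Oncostatin M (OSM) at 20 ng/ml and was taken as hepatocyte-like cells. The label of day 13 gives OSM at 20 ng/ml, whereas the step lengths of the protocol, 3, 4, 6 and 8 days, place day 13 at the end of HGF and KGF. All groups come from this 1 line.

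Hemoglobin is built from alpha-like and beta-like globin chains, each holding a heme group. The alpha-like genes lie together on chromosome 16 and the beta-like genes on chromosome 11. During development the first red cells, which form in the yolk sac, use the embryonic chains zeta (HBZ) and epsilon (HBE1). Red cells made in the fetal liver use alpha (HBA1, HBA2) with gamma (HBG1, HBG2) chains, and adult beta (HBB) takes over around birth. ALAS2 is the erythroid form of 5-aminolevulinate synthase, the first enzyme of heme synthesis, and ALAS1 does the same step in other cells, hepatocytes included.

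The values are scores, whole numbers that the authors normalized for GC content, and not read counts. Their distribution was nearly the same in every library, with a median of 82 in 9 libraries and 81 at day 21, and a maximum of 18734 in all 10. The paper gives only an average sequencing depth, and these scores do not show the depth of each library. At the top of the scale the same levels recur in every library, each shared by 9 or 10 genes. A value shows only about where a gene stood among the genes of its library. Every gene of the table reached 26 or more in 2 or more libraries, so a gene near 0 on the early days could be in the table only by being higher later. In bulk RNA, a change in the number of cells of a type and a change in the RNA per cell cannot be told apart.

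HBE1 (ENSG00000213931) stood at 11:5289582-5526834 on the minus strand in the intervals of the table. The processing notes name hg19 and mm10 without saying which applies to these intervals. All identifiers are human, so the intervals cannot be of mm10, a mouse build. HBG2 (ENSG00000196565) stood at 11:5274420-5526835 and HBG1 (ENSG00000213934) at 11:5269313-5271122 on the same strand. The HBE1 interval lay wholly inside that of HBG2, and their ends differed by 1 base, so these genes overlap and reads of long transcripts could be given to either. HBZ (ENSG00000130656) stood at 16:202686-204502, HBA2 (ENSG00000188536) at 16:222846-223709 and HBA1 (ENSG00000206172) at 16:226679-227521, all on the plus strand. ALAS2 (ENSG00000158578) stood at X:55035488-55057497 on the minus strand. Of the 50-base windows in the protein-coding transcripts of HBA1 in GENCODE release 29, 83.1% also occurred in transcripts of HBA2. Of those of HBG1, 53.0% occurred in HBG2, and of those of HBE1, 0.105% occurred in HBG1. The split between HBA1 and HBA2, and between HBG1 and HBG2, is for this reason uncertain.

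The sequence of the 250 bases before the start of ALAS2 is shown because the red cell factors GATA1 and KLF1 are known to act through GATA and CACCC motifs in promoters of globin and heme genes. The sequence, from RefSeq, lies at chrX:55030978-55031227 on the minus strand of GRCh38.p14 and is written from 5′ to 3′ in the direction of the gene. Capitals mark matches to 4 forms of the GATA motif (letters AGATAA, other letters AGATAG, other letters TGATAA, other letters TGATAG) and matches to the motif CACCC, to the motif CCAAT and to the motif ATAAA, each searched on both strands.

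ALAS2: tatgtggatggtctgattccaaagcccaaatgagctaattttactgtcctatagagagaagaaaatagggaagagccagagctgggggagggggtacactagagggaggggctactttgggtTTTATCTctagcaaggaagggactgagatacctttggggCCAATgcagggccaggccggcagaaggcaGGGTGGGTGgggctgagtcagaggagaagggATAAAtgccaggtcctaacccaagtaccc

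A single GATA match, AGATAA on the reverse strand, lay 127 to 122 bases before the start. It overlapped a reverse match to ATAAA at 128 to 124 bases. CCAAT lay at 89 to 85 bases. Reverse matches to CACCC lay at 60 to 56 and at 56 to 52 bases and shared 1 base. A forward ATAAA lay at 29 to 25 bases, the place where a TATA box is usual. The bases before this ATAAA are GG, so GATA also occurs there, in GGATAAA, a form that was not searched. Of the 35116 windows of the same length in the table, 22.3% held at least 1 of the GATA motifs, 54.7% CACCC, 32.0% CCAAT and 32.7% ATAAA. Matches of this kind are common and say nothing of which factor was bound. No promoter sequence is printed for HBE1, HBZ, HBG1, HBG2, HBA1 and HBA2.

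The embryonic beta-like gene HBE1 reached the largest deposited value of the members, on a scale that is not per length. It was listed at 0 on day 0, 3 on day 1, 0 on day 2, 1 on day 3, 2 on day 5, 3 on day 7, 42 on day 9, 446 on day 11, 2968 on day 13 and 1248 on day 21. Through day 7 it was thus among the lowest genes of the table, and on day 13 it ranked 59 from the top of 12125. The value was 10.6 times as high on day 11 as on day 9 and 6.65 times as high on day 13 as on day 11. On day 21 it was at 42.0% of day 13, a difference of -1.25 in log2(value + 1). The day 13 value lies on the level of 2968 to 2972, which 10 genes of that library share, with the nearest levels at 2796 to 2802 and 3428 to 3438, so it is known only to such steps.

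The embryonic alpha-like gene HBZ was listed at 0 on each day through day 7, then at 6 on day 9, 78 on day 11, 444 on day 13 and 428 on day 21. It was the 1 member that stood at nearly the same value on days 13 and 21, at a log2 difference of -0.05. The other 6 members were lower on day 21, by log2 differences from -0.79 (HBG2) to -1.99 (HBA2).

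The fetal genes HBG1 and HBG2 encode gamma chains that differ little from each other. HBG2 was listed at 0, 2, 2, 1, 1 and 4 on the 6 days through day 7, then at 39 on day 9, 212 on day 11, 1044 on day 13 and 604 on day 21. HBG1 was listed at 0 on day 0, 8 on day 1, 0 on days 2, 3, 5 and 7, then 8, 34, 139 and 58 on days 9, 11, 13 and 21. Both were highest on day 13 and next highest on day 21. HBG2 moved from rank 8850 from the top on day 9 to rank 286 on day 13, and HBG1 from 11635.5 to 3939.5 (ties are given their mean rank).

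The alpha genes HBA1 and HBA2 encode the same protein. HBA1 was listed at 2, 5, 16, 0, 1 and 5 on the 6 days through day 7, then at 18, 154, 620 and 308 on days 9, 11, 13 and 21. HBA2 was listed at 0 on each day through day 7, then at 9, 84, 304 and 76. Both were highest on day 13. HBA2 was at 25.0% of its day 13 value on day 21, and HBA1 at 49.7%.

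ALAS2 had another course before day 9. It was listed at 0 on days 0 and 1, 2 on days 2 and 3, 12 on day 5, 31 on day 7, 11 on day 9, 24 on day 11, 148 on day 13 and 56 on day 21. It was already above its first values on days 5 and 7, when no globin was above 5, and it was lower on day 9 than on day 7, where the 6 globins were all higher on day 9. Over the 10 days, the correlation (Pearson) of log2(value + 1) between ALAS2 and the single globins lay between 0.64 and 0.82, and between pairs of globins between 0.91 and 0.99. These points share their libraries and the scaling of the table, and no globin was above 16 through day 7.

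To gauge the spread between libraries, the SD of the difference in log2(value + 1) between days 9 and 11, which share a medium, was taken over all genes in bands of their mean value. It was 1.22 for means under 10, 0.77 from 10 to 30, 0.41 from 30 to 100, 0.32 from 100 to 300 and 0.27 from 300. It stands in for replicate error, which cannot be had from 1 library per day, and any true change from day 9 to day 11 is part of it. The log2 difference of HBZ between days 13 and 21 was smaller than the SD of its band. Those of the other 6 members were larger than the SD of theirs. Days 13 and 21 lie further apart than days 9 and 11, so this SD may be too small for that step.

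A gene was counted as higher or lower at a difference of at least 2 in log2(value + 1), that is 4-fold, with the larger value at least 50. From day 7 to day 13, 7 of 7 members were counted as higher, beside 3.08% of the 8892 genes with a larger value of at least 50. Their median difference was 7.71, beside -0.04 over all 12125 genes. The differences were 9.54 for HBE1, 8.80 for HBZ, 8.25 for HBA2, 7.71 for HBG2, 7.13 for HBG1, 6.69 for HBA1 and 2.22 for ALAS2. HBZ, HBA2 and HBG1 were listed at 0 on day 7, so their differences depend on the 1 that was added. These members were chosen on this pattern, and nothing is read from the count. With day 21 as the end, 6 of 7 were counted as higher, beside 5.9% of genes, and ALAS2, with 31 on day 7 and 56 on day 21, was not.

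Taken step by step, the 6 globins were higher in each library than in the one before from day 7 to day 13. From day 0 to 3, 3 to 7 and 7 to 9 no member had a value of 50, so none could be counted. From day 9 to day 11, 5 members (HBE1, HBZ, HBG2, HBA1 and HBA2) had a larger value of at least 50. All 5 were counted as higher, beside 0.107% of genes. They were below 50 on day 9 and passed the filter only through day 11, so nothing is read from this count. HBG1, at a difference of 1.96, and ALAS2, at 1.06, did not reach 50. Since 9 genes of the table were counted in all, 4 were other genes, named here after their values were seen. CSF3R, a receptor of granulocyte growth factor, was at 10 on day 9 and 56 on day 11. RP11-407N17.3 was at 23 and 121, ANKHD1-EIF4EBP3 at 18 and 82, and RGPD5 at 8 and 178. Of these 4, CSF3R was higher still on day 13, at 169, and the others were lower on day 13 than on day 11.

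From day 11 to day 13, 6 of 7 members were counted as higher, beside 0.224% of genes. The members were chosen on this late rise, so nothing is read from this count either. HBG1, at a difference of 2.00, and HBA1, at 2.00, lay just inside the limit, and HBA2, at 1.84, just outside it. Of the 19 genes counted in this step, 13 were not members. From day 13 to day 21 no member was counted as higher, beside 2.28% of genes, or as lower, beside 1.62%. The median member difference was -1.25, beside -0.10 over all genes. HBA2, at -1.99, was just short of the limit. At a limit of 2-fold, 5 of 7 members (HBE1, HBG1, HBA1, HBA2 and ALAS2) were lower on day 21, beside 9.08% of genes.

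The balance between globins was followed within each library. The values are not per length, so a ratio on 1 day says nothing of which RNA was more abundant. The scores of all libraries lie on nearly the same levels, so a factor common to a library need not cancel. A change in a ratio between days is a change on this scale, and how much of it came from the normalization is not known. The summed gamma genes (HBG1 and HBG2) stood at 47 and HBE1 at 42 on day 9, and the log2 ratio of gamma over epsilon was 0.16. It was -0.86 on day 11, -1.33 on day 13 and -0.91 on day 21. The SD for a ratio was taken from the bands of the lower values of each pair of days. It comes from days 9 and 11, so it may be too small for longer spans. From day 9 to day 13 the ratio changed by -1.49, beside an SD of 0.58. On this scale HBE1 thus gained on the gamma genes while all of them were higher. The intervals of HBE1 and HBG2 overlap, so the split between epsilon and gamma is itself uncertain. From day 13 to day 21 the ratio changed by 0.41, close to the SD of 0.39 at those values.

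The ratio of alpha (HBA1 and HBA2) over zeta (HBZ) moved one way throughout. Its log2 value was 2.00 on day 9, 1.60 on day 11, 1.06 on day 13 and -0.16 on day 21. The change of -0.94 from day 9 to day 13 was smaller than the SD of 1.44 at the low values of day 9. The changes of -1.75 from day 11 to day 21 and of -1.21 from day 13 to day 21 were larger than their SDs of 0.52 and 0.39. These SDs come from days 9 and 11, which share a medium, and may be too small for spans that reach day 21. In development zeta gives way to alpha and epsilon to gamma. Here zeta gained on alpha from day 11 to day 21, and epsilon gained on gamma from day 9 to day 13. These are different spans of days. From day 11 to day 21 gamma over epsilon changed by -0.06, beside an SD of 0.42. From day 13 to day 21 it changed by 0.41, towards gamma.

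The summed alpha-like genes over the summed beta-like genes had log2 ratios of -1.40, -1.13, -1.60 and -1.23 on days 9, 11, 13 and 21. The change of 0.37 from day 13 to day 21 was smaller than the SD of 0.39. Between the near-identical copies, HBA2 over HBA1 had log2 ratios of -0.93 on day 9, -0.87 on day 11 and -1.03 on day 13, and changed by -0.98 from day 13 to day 21, beside an SD of 0.50. The sum of the 6 globin values was 12 on day 7, 122 on day 9, 1008 on day 11, 5519 on day 13 and 2722 on day 21.

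**Figure D1:**
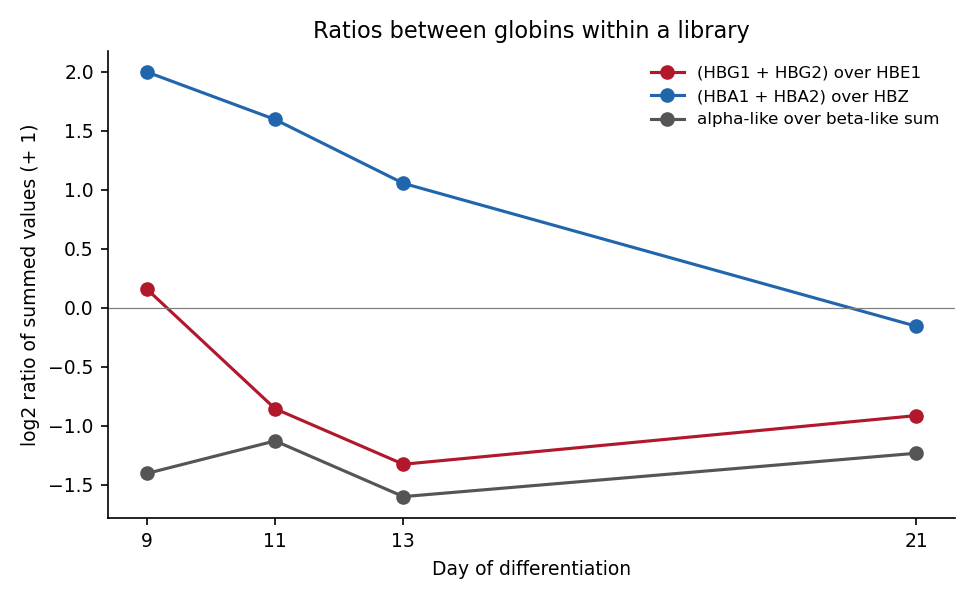
log2 ratios between summed globin values (with 1 added to each sum) within each library, against the day of differentiation, from 1 library per day. Alpha over zeta went from 2.00 on day 9 to -0.16 on day 21, and gamma over epsilon from 0.16 to -1.33 on day 13 and -0.91 on day 21.

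The other members of the globin family were looked at from a list of 8, of which 1 was found. This was CYGB, cytoglobin, which is found in fibroblast-like and stellate cells and not in red cells. CYGB was at 2 on day 7, 20 on day 9, 41 on day 11, 96 on day 13 and 76 on day 21. It was counted as higher from day 7 to day 13 at a log2 difference of 5.01, beside 3.08% of genes. HBB and HBD, the adult beta-like genes, were not analysed here.

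Heme synthesis beside ALAS2 showed no change of the size seen in the globins. All 16 listed genes of the pathway and its transporters were found. From day 7 to day 13, 15 had a larger value of at least 50, and none was counted as higher or as lower, beside 3.08% and 2.46% of genes at such values. Their median log2 difference was 0.08. Past 2-fold were CPOX, coproporphyrinogen oxidase, at 43 on day 7, 155 on day 13 and 147 on day 21, and SLC25A37 (mitoferrin), which carries iron into mitochondria, at 123, 303 and 296. ALAS1 was at 112 on day 7, 131 on day 13 and 175 on day 21, beside 31, 148 and 56 for ALAS2. FECH, ferrochelatase, which puts iron into the porphyrin ring, was at 56, 88 and 52. From day 13 to day 21 none of the 16 was counted in either direction. FLVCR1, a heme exporter, at 116 on day 13 and 351 on day 21, and ABCB6, a porphyrin transporter, at 104 and 248, were higher past 2-fold in this step.

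Of the 4 heme breakdown genes, HMOX1, the inducible heme oxygenase, was counted as lower from day 7, at 536, to day 13, at 125. Its log2 difference was -2.09, and 2.46% of genes were counted as lower in this step. BLVRB, a biliverdin reductase abundant in red cells, was at 54 on day 7, 136 on day 13 and 135 on day 21.

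**Figure D2:**
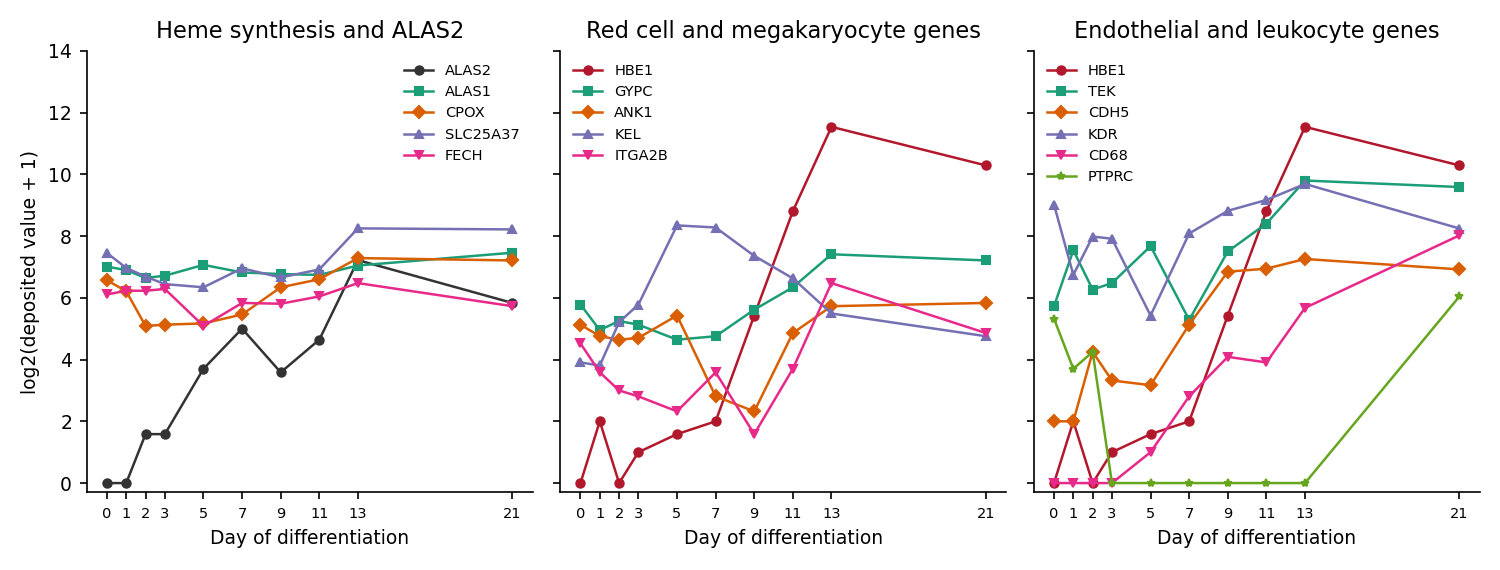
log2(deposited value + 1) against the day of differentiation for ALAS2 with 4 heme genes (left), for HBE1 with red cell and megakaryocyte genes (middle) and for HBE1 with endothelial and leukocyte genes (right), 1 point per library. ITGA2B, like HBE1, was higher on day 13 than on days 7 and 21, TEK was at 889 on day 13, and PTPRC was listed at 0 from day 3 to day 13.

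Of 14 transcription factors of the red cell lineage, 6 were found. GATA1, KLF1 and TAL1, which define the lineage, were not analysed here. From day 7 to day 13, 3 of the 6 had a larger value of at least 50 and none of these was counted as higher, beside 3.08% of genes at such values. LMO2, a bridging protein of the TAL1 complex, was at 28 on day 7, 60 on day 13 and 36 on day 21. GATA2, a factor of blood progenitors and endothelium, was at 26, 35 and 3.

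Of 13 regulators of globin switching, 12 were found, and 10 had a larger value of at least 50 on days 7 or 13. Of these, 1 was counted as higher and 1 as lower, beside 3.08% and 2.46% of genes at such values. From day 13 to day 21, 1 was counted as lower, beside 1.62%. LIN28A, an RNA-binding protein of embryonic and fetal cells that favours fetal globin in red cells, was counted as lower in both steps, at 2970 on day 7, 606 on day 13 and 37 on day 21. SOX6, which acts with BCL11A on embryonic and fetal globin genes in red cells, was at 20 on day 7, 88 on day 13 and 169 on day 21. It was counted as higher from day 7 to day 13 at a difference of 2.08, just inside the limit. LIN28B was at 226, 182 and 133 on these days, and NR2F2 at 62, 154 and 234. BCL11A was at 14, 12 and 11, all low values. The median log2 difference of the 12 from day 7 to day 13 was -0.14.

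Of 26 genes of the red cell membrane and surface, 11 were found. From day 7 to day 13, 8 had a larger value of at least 50, and of these 2 were counted as higher and 1 as lower, beside 3.08% and 2.46% of genes at such values. GYPC, glycophorin C, which anchors the membrane skeleton, was at 54 on day 0, 26 on day 7, 169 on day 13 and 147 on day 21. ANK1, erythroid ankyrin, was at 34 on day 0, 42 on day 5, 6 on day 7, 52 on day 13 and 56 on day 21. Both were thus higher on day 0 than on day 7, from which they were counted. KEL, the Kell blood group protein, was counted as lower, at 309 on day 7, 44 on day 13 and 26 on day 21. EPOR, the erythropoietin receptor, was at 60, 84 and 118, and TFRC, the transferrin receptor, which most growing cells use, was at 314, 404 and 518. The median log2 difference of the 11 was 0.36. AHSP, the chaperone of free alpha chains, was not analysed here.

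Other cell types were checked by their marker genes. Of 10 megakaryocyte genes, 2 were found, and they went opposite ways from day 7 to day 13. ITGA2B was counted as higher, beside 3.08% of genes, at 11 on day 7, 88 on day 13 and 28 on day 21. NBEAL2 was at 266, 163 and 186. Their summed value was 277 on day 7 and 251 on day 13. Of 14 progenitor and leukocyte genes, 5 were found. PTPRC (CD45), carried by all leukocytes, was at 39, 12 and 18 on days 0, 1 and 2, listed at 0 on each day from day 3 to day 13 and at 65 on day 21, where the globins were lower than on day 13. CD68, a macrophage gene, was at 6 on day 7, 50 on day 13 and 259 on day 21. It was counted as higher in both steps, beside 3.08% and 2.28% of genes. CD34 was at 131, 82 and 72. The summed value of the 5 was 395 on day 7, 243 on day 13 and 512 on day 21.

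Of 13 endothelial genes, 10 were found, with PECAM1 not analysed here. Their summed value was 876, 621, 772, 917 and 660 on days 0, 1, 2, 3 and 5. It was 544 on day 7, 1127 on day 9, 1479 on day 11, 2392 on day 13 and 1725 on day 21. Day 7 had the lowest sum of all libraries, so differences from day 7 start from a low point. TEK and KDR made up 1712 of the 2392 on day 13. Of the 10 genes, 4 (TEK, KDR, CDH5 and TIE1) had their highest value on day 13, the day of the highest globins, 2 on day 21, 2 on day 11 and 2 on day 3. From day 7 to day 13, TEK, at 38 and 889, and CDH5, at 34 and 152, were counted as higher, beside 3.08% of genes. At a limit of 2-fold, 7 of the 7 with a larger value of at least 50 were higher, beside 9.65% of genes at such values. On day 0, KDR was at 517 and FLT1 at 196, beside 823 and 158 on day 13. TEK was at 52 and CDH5 at 3 on day 0. None of the 10 was listed at 0 from day 9 onwards. The part of endothelial or blood cells in the globin values was not tested.

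The labelled stages were checked on the same days. POU5F1 was at 4861 on day 0 and 11 on day 13, and SOX17, a DE gene, at 790 on day 3 and 4 on day 13. CXCR4, another DE gene, was at 568 on day 3, listed at 0 on day 13 and at 58 on day 21. FOXA2, also a DE gene, was at 190 on day 3, 343 on day 7, 144 on day 13 and 48 on day 21. AFP was at 18734, the top of the scale, from day 7 onwards, and ALB at 65 on day 7, 168 on day 13 and 4866 on day 21. TTR was at 3430 on day 7 and 18734 from day 9, and SERPINA1 at 56 on day 7, 2640 on day 13 and 18734 on day 21. Of the 6 hepatic genes none was listed at 0 from day 5 onwards. HNF4A was at 1044 on day 7, 838 on day 13 and 470 on day 21, and APOA1 at 4855, 4855 and 3428. AFP, APOA1 and HNF4A were thus high where the globins were highest. They were also high on day 7, when the sum of the 6 globins was 12.

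The 10 genes whose course was most like that of the members were found by the Pearson correlation over the 10 days with the mean profile of the 7, among 10739 other genes with a largest value of at least 50. They were TMEM207 (0.99), C1orf198 (0.99), EPHA7 (0.99), CD99L2 (0.98), ENDOD1 (0.98), ANGPTL6 (0.98), RAMP1 (0.98), CSF1 (0.98), ZNF641 (0.97) and CD164 (0.97). A high correlation did not mean a change of like size. TMEM207 was at 1 on day 7, 65 on day 13 and 33 on day 21, whereas C1orf198 was at 187, 410 and 434. ANGPTL6 was listed at 0 on day 7 and was at 164 and 254. EPHA7, an ephrin receptor, was at 112, 1048 and 568. Of genes looked up by name, CYGB stood at place 71 in this order, at 0.94, and GYPC at place 234, at 0.90. TEK stood at place 399 and CDH5 at 408, both at 0.87. AFP stood at place 1042, at 0.79, ALB at 1169, at 0.77, and ITGA2B at 2398, at 0.59. TFRC stood at place 5832, at -0.26. The order depends on the measure, since 1 of these 10 genes was among the first 10 by Spearman correlation.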

How the data were processed

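The authors aligned the reads with RSEM v1.2.17 and Bowtie2 v2.2.0, normalized them for GC content with EDASeq and deposited 1 table of scores, whole numbers that are not read counts, for 12125 genes. Per the labels the builds hg19 and mm10 are named, although all identifiers are human. The 10 columns were matched to days by the sample titles, and 0 columns were left unused. The paper gives an average depth but not that of each library, so no counting interval is given. Members and gene lists were chosen with earlier results of these data known. With 1 library per day no day has a replicate, and no test was made. Differences are of log2(value + 1), which understates low genes, and a gene was counted when the difference reached 2 and the larger value 50. Ratios were of summed values with 1 added. Named genes are the 7 members, the 10 most alike, the list genes counted in either step and defining markers. Others named are examples from the lists chosen after their values were seen. The values of some single genes are left out here. Shared 50-base windows were counted in GENCODE release 29 transcripts, and the promoter came from RefSeq (GRCh38.p14). Alternatives were other pseudocounts, scalings, filters, limits, days and summed gene copies. The code was tested on simulated data. Python 3.11.15, numpy 2.4.6, pandas 2.3.3 and matplotlib 3.10.9 were used.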

Additional observations from a re-analysis of the deposited data

How the results depend on the processing

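With 1 library per day, none of these values has a replicate check, and the depth of each library is not known. No paired analysis was possible because each day has 1 library. The median log2 difference of the 7 members from day 7 to day 13, 7.71, was 9.90 with a pseudocount of 0.1, 5.97 with a pseudocount of 5, 5.41 with day 11 as the end and 8.28 with day 5 as the start. It moved by less than the spread with the near-identical copies summed and under either scaling. The scalings could hardly move it, because the scores already had nearly the same distribution in every library, so they are no check. With day 11 as the end, the ALAS2 difference reversed, to -0.36, because it was at 24 on day 11 against 31 on day 7. Of 70 values of single members under an alternative, 48 moved by less than the SD between days 9 and 11, 21 by more and 1 reversed. The 48 include all 14 values under each scaling. All 7 members were counted as higher from day 7 to day 13 with pseudocounts of 0.1 and 5. They were also counted with the median of ratios scaling, with a limit of 1 and without a filter. Where the larger value had to reach 200, 5 were counted, since HBG1, at 139 on day 13, and ALAS2, at 148, did not reach it. With an end chosen after seeing the data, 5 were counted at day 11 and 6 at day 21. With a limit of 1 on the log2 scale, the members lower from day 13 to day 21 went from 0 to 5, the heme synthesis genes higher from day 7 to day 13 from 0 to 2, the endothelial genes from 2 to 7 and the switch regulators from 1 to 2. Where the larger value had to reach 200, the red cell genes higher went from 2 to 0, the endothelial genes from 2 to 1 and the switch regulators from 1 to 0. Without a filter 4 endothelial genes were counted, and with a pseudocount of 5 the switch regulators went to 0. Of the 10 most alike genes, 1 remained by Spearman correlation, 5 without the day 21 library and 6 with a pseudocount of 5.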
